A study of Mus musculus with 2 samples.

Results

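The presence of DLX2 CUT&Tag peaks in the developing upper jaw was examined around 9 genes that are tied to DLX2 in the forebrain, namely *Gad1*, *Gad2*, *Slc32a1*, *Nrp2*, *Lhx6*, *Lhx8*, *Npas1*, *Gsx2* and *Olig2*. The genes were chosen by name, for their known ties to DLX2 in the forebrain and not by a rule on measured values, and they are 9 of the 21757 protein-coding genes of the RefSeq annotation of GRCm38.p6 (mm10) used here. A peak belonged to a gene when at least 1 bp of it lay inside the gene or within 100 kb of either end. Distances upstream and downstream are given to the nearer end of the gene, and distances after a start to the middle of the region. Cells of the maxillary process, from which most of the upper jaw develops, were taken from wildtype mice (C57BL/6 per the labels) at E12.5 and profiled with an antibody against DLX2 (Abcam ab272902). The 2 libraries are replicates of this single condition, and the labels do not say whether they came from separate embryos, litters or pools. No control library, mutant or expression measurement was used here, so the labelled tissue could not be checked by marker genes, and the values below carry no test between conditions.

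DLX2 is a homeodomain transcription factor that acts in the subpallium of the forebrain as well as in the neural crest of the jaws. In the forebrain it promotes the formation and migration of neurons that use the inhibitory transmitter GABA, and homeodomains of its class prefer DNA with an AT-rich core. Genes that make and load GABA are among those activated in this lineage, whereas genes of other lineages and of axon repulsion are held down. Of the 9 genes, *Lhx6* and *Lhx8* are also known from the mesenchyme of the first pharyngeal arch, which gives rise to the jaws, and the others are known mainly from the nervous system.

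Promoter sequences were available for all 9 genes, as 11 windows of 300 bases that run from 250 bases before to 50 bases after a transcription start (RefSeq, GRCm38.p6). A single window met a peak, that of *Gad2*, and it did so in replicate 2 only. It is shown because it is the sole promoter of the group under a peak. The overlapped stretch is chr2:22622077-22622250 on the plus strand, 77 to 250 bases before the start, and the summit of the peak lay 290 bases before the start. The RefSeq extent of *Gad2* begins before this start, so the peak also counts as inside the gene below.
*Gad2*, promoter under the replicate 2 peak: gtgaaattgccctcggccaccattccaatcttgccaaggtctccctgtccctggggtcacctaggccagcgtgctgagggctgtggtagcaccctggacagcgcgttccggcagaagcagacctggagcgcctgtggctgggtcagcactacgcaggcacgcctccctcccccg

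This stretch held 65.5% G and C and no match to TAATT on either strand, so no letter is in capitals. TAATT is part of the core that homeodomains of this class prefer. The longer palindrome TAATTA, which contains TAATT on both strands, was found in 0 of the 11 windows, against 5.29% of all 32851 promoter windows. TAATT on either strand was found in 3 of the 11, those of *Lhx6*, *Gsx2* and *Olig2*, against 27% of all windows. They are given to set beside the *Gad2* stretch, with the match in capitals (AATTA is TAATT on the other strand). The *Lhx6* stretch is chr2:36104273-36104301 on the minus strand, with its match beginning 229 bases before the start. The *Gsx2* stretch is chr5:75075375-75075403 on the plus strand, with its match 214 bases before the start, and the *Olig2* stretch is chr16:91225391-91225419 on the plus strand, with its match 147 bases before the start.
*Lhx6*: cacgacaatttcTAATTgcaggtagtttg
*Gsx2*: gatccctagcaaAATTAacagaccctaca
*Olig2*: ttcattgagcggAATTAgccgggtgacat

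None of these 3 windows met a peak of either replicate. A match is a string of letters and not a measured site, and a window without one says nothing of the factor. Over the 17476 protein-coding genes with a promoter window, 0.973% had a window met by a replicate 1 peak and 3.27% by a replicate 2 peak. These are the genes meant by all genes in this paragraph. The group had 0 of 9 and 1 of 9, and a region shared by both lists met 0 of 9, against 0.183% of all genes. Within 2 kb of a start, *Lhx6* had 1 peak in replicate 1 and 2 peaks in replicate 2, and *Gad2* had its 1 peak in replicate 2. Of all genes, 6.15% had a replicate 1 peak within that distance and 15.7% a replicate 2 peak. No shared region lay within 2 kb of a start of the group (1.81% of all genes), and the closest lay 12.7 kb from a start, at *Olig2*. With so low a share over all genes, the absence of a shared region at these 9 starts is no result about the group.

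Every gene of the group had a peak of each replicate within 100 kb. This was also the rule in the genome, where 83.1% of protein-coding genes had a replicate 1 peak and 91.7% had a replicate 2 peak in the same window. The windows held 44 of the 28061 replicate 1 peaks and 89 of the 62093 replicate 2 peaks. The group thus had 2.02 times as many peaks in replicate 2 as in replicate 1, close to the ratio of 2.21 over the whole lists. Both lists run down to a q of about 0.099, and the lowest local background, as recovered from the deposited values, was 0.387 fragments for replicate 1 and 1.1 for replicate 2. That floor was 2.84 times higher in replicate 2, so the lists differ in coverage as well as in length, and the part of coverage in the counts was not tested. A fold of at least 5 was reached by 15 of the 44 replicate 1 peaks (33.0% of all) and 25 of the 89 replicate 2 peaks (19.4% of all). A −log10 q of at least 5 was reached by 4 (10.2% of all) and 16 (11.1% of all).

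A shared region, that is a segment covered by a peak of each replicate, was found within 100 kb of 8 of the 9 genes, 19 regions in all. Over all protein-coding genes 60.3% had one. All 9 genes lie on autosomes, and of the protein-coding genes of chromosomes 1 to 19, 63.2% had one, 86.3% had a replicate 1 peak and 93.7% had a replicate 2 peak. Among the 17000 genes between the shortest and the longest of the group in length the shares were 62.8%, 86.3% and 93.9%. Within 10 kb a shared region was found at 3 of 9 genes (21.8% of all genes), within 50 kb at 5 of 9 (44.7%) and within 250 kb at 9 of 9 (79.4%). The median gene of the group had 2 shared regions and the median protein-coding gene had 1. With 9 genes and no second condition, the difference from the background is a description. *Gsx2* was the gene without a shared region.

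**Figure D1:**
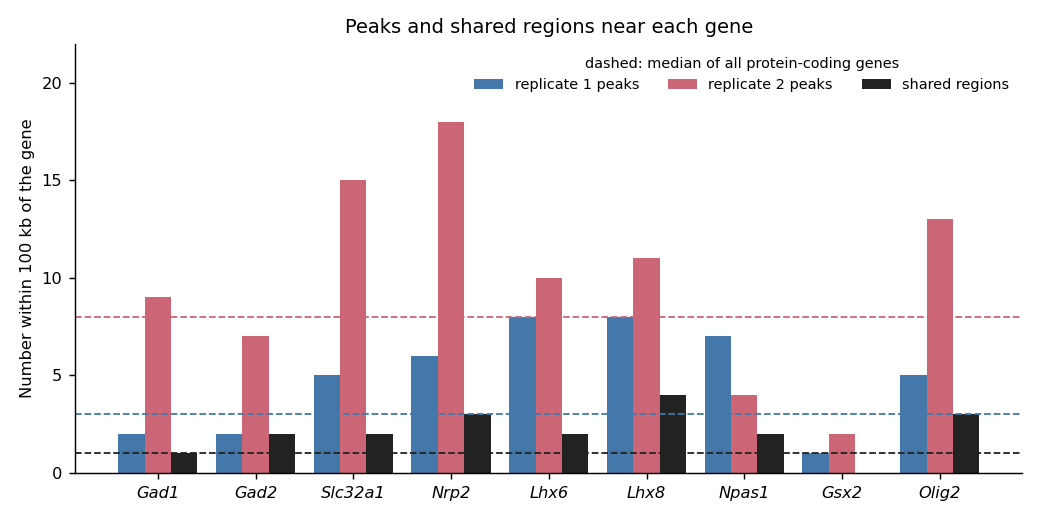
Number of replicate 1 peaks, replicate 2 peaks and shared regions within 100 kb of each gene (bars), with the median of all protein-coding genes for each as a dashed line. Replicate 2 exceeded replicate 1 at 8 genes, *Npas1* was the exception, and *Lhx8* had the most shared regions by overlap of 1 bp, 4 against a median of 1.

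Of the replicate 1 peaks near the group, 19 of 44 met a replicate 2 peak, or 43.2% (95% Wilson interval 29.7 to 57.8%, which covers counting error only). The share over the whole list, 38.9%, lay inside this interval. In the other direction 19 of 89 replicate 2 peaks met a replicate 1 peak, or 21.3% (interval 14.1 to 31.0%), with 17.2% over the whole list. Both shares near the group were above those of the whole lists. Intervals this wide cannot settle whether the replicates matched more or less often near these genes than elsewhere. Peaks with a counterpart were higher than those without. Their median fold enrichment, which relates the summit's fragments to the background around it, was 5.30 against 4.32 in replicate 1 and 6.38 against 3.81 in replicate 2. As recovered from the deposited fold and p, the median number of fragments at the summit was 6 in replicate 1 and 9 in replicate 2, the same as over all peaks. Single peaks near the group rested on 4 to 22 fragments in replicate 1 and 6 to 39 in replicate 2.

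**Figure D2:**
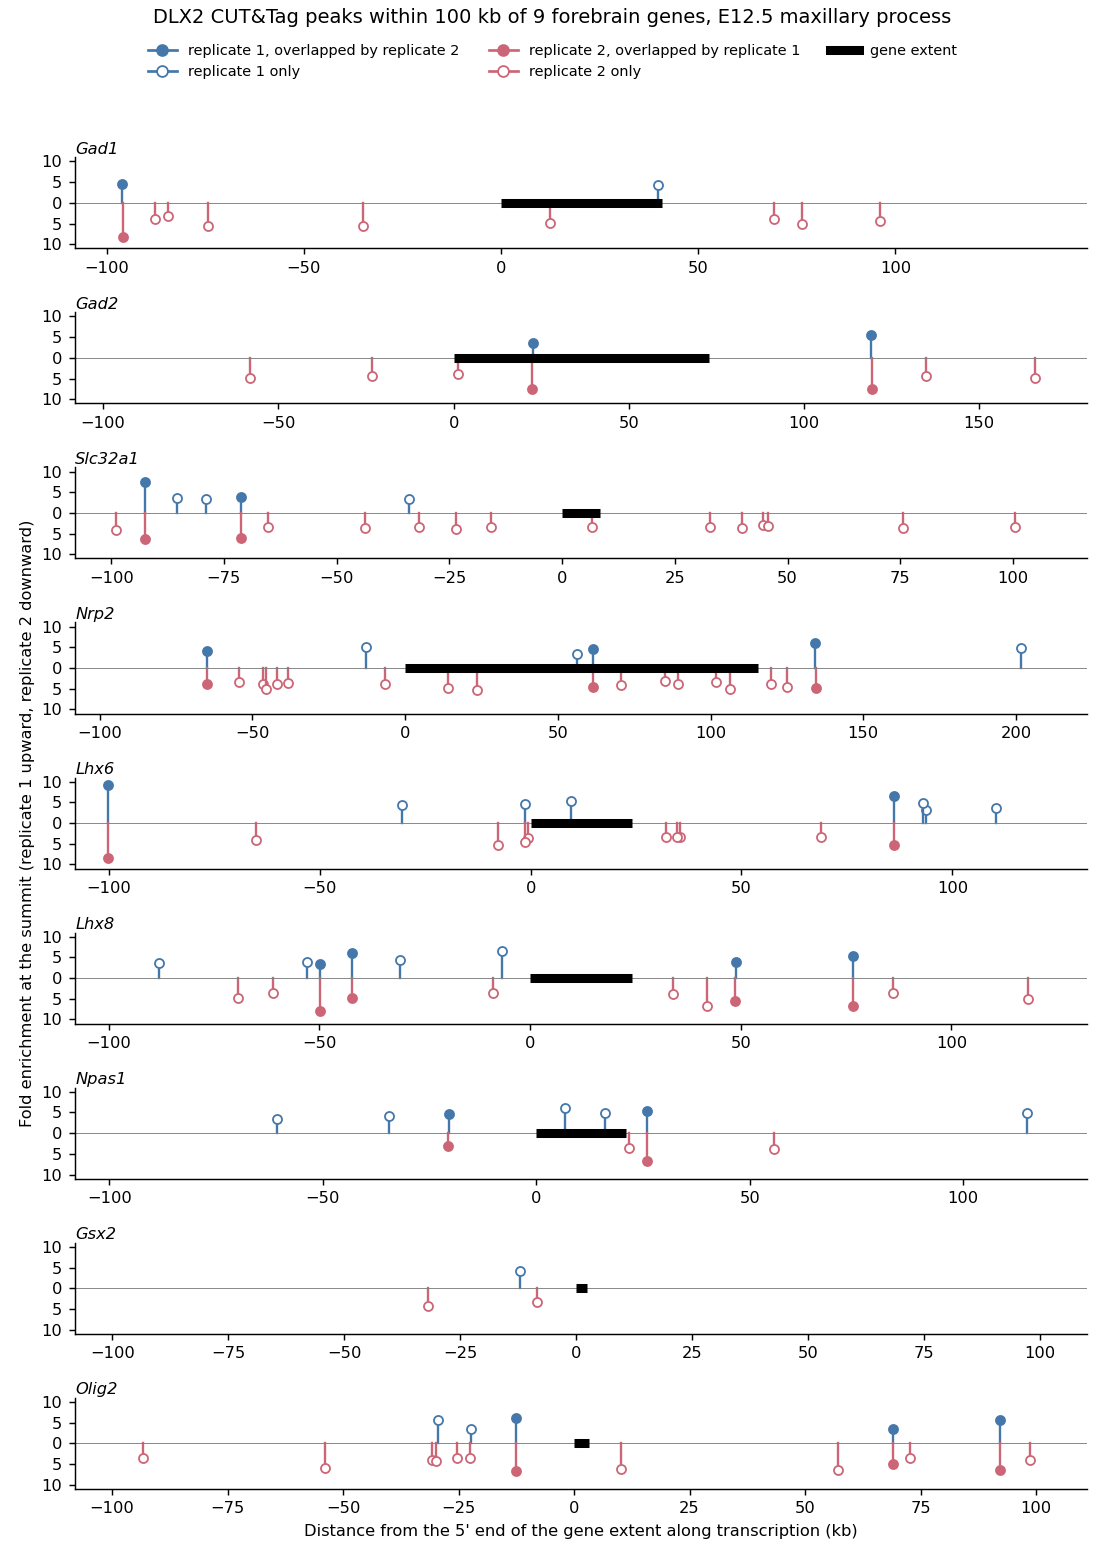
Peaks within 100 kb of each gene, plotted by distance in kb from the 5′ end of the gene along its transcription (horizontal axis) and by fold enrichment (vertical axis, replicate 1 upward and replicate 2 downward). Filled points are peaks overlapped by the other replicate, open points are found in 1 list, and the black bar is the gene, so the filled pairs at *Gad2* and *Nrp2* are the 2 shared regions inside a gene.

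The genes of GABA synthesis and loading came first in the comparison. *Gad1* and *Gad2* encode the glutamate decarboxylases that make GABA, and *Slc32a1* encodes the transporter that fills synaptic vesicles with it. All of them lie on chromosome 2, far apart from one another. *Gad1* (chr2:70561303-70602014, plus strand) had 2 peaks in replicate 1 and 9 in replicate 2. Each list had 1 peak inside the gene, 39.0 kb after the start in replicate 1 with a fold of 4.32 and 11.7 kb after it in replicate 2 with a fold of 4.76. These peaks lay 27141 bases apart, so the gene body held no shared region. The single shared region in the window, chr2:70465125-70465219, lay 96.1 kb upstream, and its fold was 4.52 in replicate 1 against 8.16 in replicate 2. Its nearest protein-coding gene was *Sp5*, a Wnt-responsive zinc finger factor, at 9.70 kb. *Gad1* was thus at the middle of the genome for shared regions, since 60.3% of protein-coding genes had as many or more.

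*Gad2* (chr2:22621015-22693877, plus strand) had 2 replicate 1 peaks, and both recurred in replicate 2. Of protein-coding genes, 70.2% had as many replicate 1 peaks or more. Replicate 2 listed 7 peaks in the *Gad2* window (58.4% of genes had as many or more). The region inside the gene, chr2:22643485-22643607, lay 21.2 kb after the start and its summits were 3 bp apart. Its fold was 3.60 in replicate 1, on 4 fragments, and 7.62 in replicate 2, on 15 fragments, so it was among the lower peaks of the group in replicate 1 and was the fourth highest in replicate 2. The other region, chr2:22740009-22740505, lay 46.1 kb downstream with folds of 5.65 and 7.5, and 15.5 kb from *Apbb1ip*, which encodes an adaptor of integrin signalling. The annotation used gives no exons, so the place of the inner region relative to the exons is not given. The promoter peak printed above had a fold of 3.81 on 7 fragments and was 21234 bases from the closest replicate 1 peak.

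*Slc32a1* (chr2:158607260-158615747, plus strand) had 5 replicate 1 peaks and 15 replicate 2 peaks. No replicate 1 peak lay in the gene, and the 1 replicate 2 peak there had a fold of 3.48. Both shared regions lay far upstream of the gene, inside *Arhgap40*. The first, chr2:158514737-158514849, was 92.4 kb from *Slc32a1*, and its fold was 7.58 in replicate 1 against 6.38 in replicate 2. The second, chr2:158535884-158536042, was 71.2 kb away with folds of 3.75 and 6.07. None of the 3 genes therefore had a shared region at its start, and *Gad2* alone had 1 within the gene.

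*Nrp2* encodes a receptor through which secreted semaphorins repel axons and migrating interneurons. It is the longest gene of the group (chr1:62703317-62818692, plus strand, 115 kb). Replicate 1 had 6 peaks in its window and replicate 2 had 18, of which 2 and 8 lay inside the gene. The highest replicate 2 peak, with a fold of 5.26, lay 23.7 kb after the start and had no counterpart. The shared region inside the gene, chr1:62764798-62764918, lay 61.5 kb after the start. Its folds were nearly equal, 4.69 in replicate 1 and 4.68 in replicate 2, and its summits were 1 bp apart. A region 18.9 kb downstream, chr1:62837593-62837661, had folds of 5.99 and 4.76 with summits 2 bp apart, and *Nrp2* was its nearest protein-coding gene. The third, chr1:62638307-62638396, had folds of 4.18 and 3.97 and lay 64.9 kb upstream inside *Pard3b*, a gene for a cell polarity protein. The summits of this upstream region were 47 bp apart. None of the 3 regions reached a fold of 5 in both lists, which 35.1% of all shared regions did. The lower of the folds was 4.68 for the inner region and 4.76 for the downstream region, against a median of 4.51 over all shared regions. Of all shared regions, 45.4% and 43.2% had a lower fold at least as high. The upstream region was lower, at 3.97, and 72.9% of all shared regions had a lower fold at least as high.

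*Lhx6* and *Lhx8* encode LIM homeodomain factors. In the forebrain *Lhx6* specifies interneurons of the medial ganglionic eminence and *Lhx8* acts in cholinergic neurons, and in the jaws both mark the oral mesenchyme. They shared the highest number of replicate 1 peaks in the group, 8 each, and 11% of protein-coding genes had as many or more. Replicate 2 had 10 peaks near *Lhx6* and 11 near *Lhx8*, which was less unusual (42.3% and 37.0% of genes had as many or more).

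Around *Lhx6* (chr2:36081950-36105992, minus strand, with 3 starts in the promoter table) peaks of both lists lay just upstream of the gene. Replicate 1 had a peak at chr2:36107163-36107259 with a fold of 4.48 on 6 fragments. Replicate 2 had a peak at chr2:36107270-36107408 with a fold of 4.55 on 11 fragments. The 2 peaks had a gap of 10 bases between them, so they did not count as shared. When summits within 150 bp were paired instead of overlapping peaks, *Lhx6* had 3 shared regions in place of 2. A second replicate 2 peak, chr2:36106376-36106654, lay 0.384 kb from the gene and its fold was 3.71. One replicate 1 peak, with a fold of 5.31, lay inside the gene, and no replicate 2 peak did.

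The 2 shared regions of *Lhx6* lay at the outer parts of its window. The region at chr2:36205841-36206383 was the highest of the group in both lists. Its local background was also the highest among the group's peaks, at 1.52 fragments in replicate 1 and 3.76 in replicate 2. Its fold was 9.14 on 22 fragments in replicate 1, against 8.40 on 39 fragments in replicate 2. Of all 10921 shared regions, 1.94% had a lower fold as high as this. It crossed the edge of the window, 99.8 kb upstream of *Lhx6*, and its nearest gene was *Ptgs1*, which encodes a cyclooxygenase, at 10.4 kb. The replicate 1 summit fell outside the window, so that by summits the group had 18 shared regions. The other region, chr2:36019700-36019877, lay 62.1 kb downstream with folds of 6.49 and 5.24, 16.4 kb from *Ndufa8*, a gene of mitochondrial complex I. Just beyond 100 kb, the next shared region of *Lhx6* lay at 102 kb.

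*Lhx8* (chr3:154306288-154330560, minus strand) had the most shared regions of the group by overlap of 1 bp, 4, and 9.41% of protein-coding genes had as many or more. This rank rests on the rule of overlap. *Lhx8* had 3 regions when summits within 150 bp were paired, the same as *Nrp2*, *Lhx6* and *Olig2*. It had 1 when 50% of each peak had to overlap, against 3 at *Olig2*, and 1 when both folds had to reach 5, against 2 at *Olig2* and at *Lhx6*. Neither list had a peak inside the gene. Upstream, chr3:154372748-154372868 lay 42.2 kb away and had a fold of 6.01 in replicate 1 against 4.85 in replicate 2. Farther up, chr3:154380348-154380461 lay 49.8 kb away with folds of 3.29 on 4 fragments and 8.06 on 21 fragments, the widest difference between the lists in the group. *Lhx8* was the nearest protein-coding gene of both of these regions. Downstream, chr3:154281684-154281869 lay 24.4 kb away with folds of 3.96 and 5.57, and chr3:154253800-154253934 lay 52.4 kb away with folds of 5.37 and 6.66. The downstream pair was closer to *Slc44a5*, a gene of a choline transporter-like protein, and the last region lay inside it. Near the start, replicate 1 had a peak 6.65 kb upstream with a fold of 6.62 and replicate 2 had one 8.65 kb upstream with a fold of 3.68, and these did not meet.

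*Npas1* encodes a bHLH-PAS transcription factor of interneurons. Its window (gene at chr7:16455721-16476822, minus strand) was the only one in the group with more peaks in replicate 1 than in replicate 2, 7 against 4. Inside the gene, replicate 1 had 2 peaks, with folds of 4.92 and 6.09, and replicate 2 had 0. One shared region, chr7:16450897-16450996, lay 4.73 kb downstream of *Npas1* with folds of 5.30 and 6.81. It lay 1.78 kb from *Tmem160*, a gene of a transmembrane protein. The other, chr7:16497383-16497399, lay 20.6 kb upstream inside *Arhgap35*. It was 17 bp long, the shortest of the group, and had folds of 4.65 and 3.06, so that 99.1% of all shared regions had a lower fold at least as high.

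*Gsx2* and *Olig2* encode factors of progenitor cells. *Gsx2* is a homeodomain factor that patterns the lateral ganglionic eminence, and *Olig2* is a bHLH factor of oligodendrocytes and motor neurons. They are similar in length, 2.29 and 3.13 kb, but differed in their peaks. *Gsx2* (chr5:75075601-75077893, plus strand) had 1 peak in replicate 1, with a fold of 4.28 on 5 fragments. Replicate 2 had 2 peaks, with folds of 4.28 and 3.33. All of them lay upstream, between 8.20 and 31.7 kb from the gene, and none met. The 100 kb downstream held no peak of either list. The closest shared region lay 116 kb from *Gsx2*, just outside the window, and with a window of 250 kb the gene had 4. Of all protein-coding genes, 83.1% had at least as many replicate 1 peaks and 85.6% at least as many replicate 2 peaks.

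*Olig2* (chr16:91225550-91228677, plus strand) had 5 replicate 1 peaks and 13 replicate 2 peaks, which met in 3 shared regions. The region at chr16:91212824-91212970, 12.6 kb upstream, was the closest to a start in the group. Its folds were 6.01 in replicate 1 and 6.66 in replicate 2 with summits 15 bp apart, and *Olig2* was its nearest protein-coding gene. The downstream regions, chr16:91294623-91294722 and chr16:91317782-91317899, lay 65.9 and 89.1 kb away with folds of 3.41 and 4.89 and of 5.51 and 6.38. Their nearest protein-coding gene was *Olig1*, the neighbour and close relative of *Olig2*. Between 20 and 30 kb upstream, 2 more replicate 1 peaks lay 35 and 287 bases from replicate 2 peaks without meeting them. Per 100 kb of window *Olig2* had 1.48 shared regions, and 8.07% of protein-coding genes had as high a density.

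**Figure D3:**
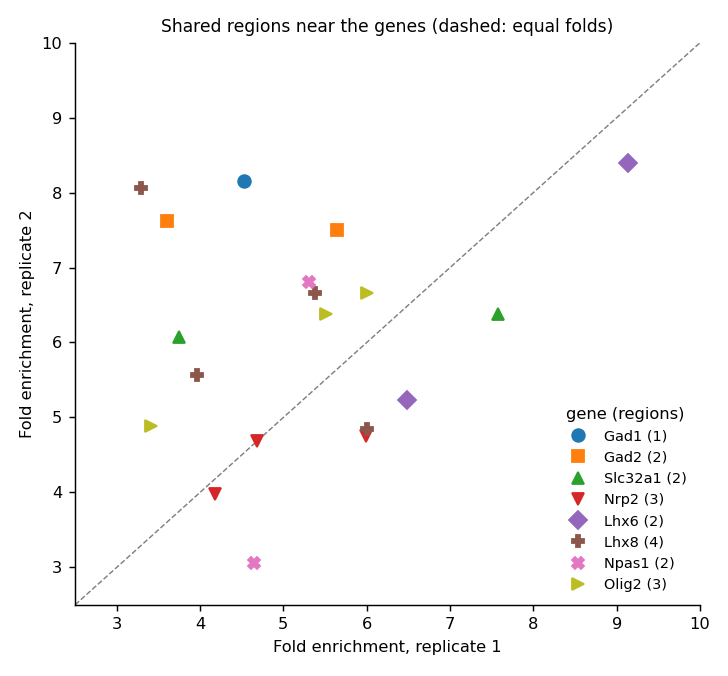
Fold enrichment of the 19 shared regions in replicate 1 (horizontal axis) and replicate 2 (vertical axis), with a symbol for each gene and a dashed line of equal folds. The fold was higher in replicate 2 for 11 regions and in replicate 1 for 8, and the *Lhx6* region at 9.14 and 8.40 stands highest in both.

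The 19 shared regions were moderate in height. Their median fold was 5.30 in replicate 1 and 6.38 in replicate 2, against 5.05 and 5.12 over all 10921 shared regions. A fold of 5 or more in both lists was reached by 8 of 19 (35.1% of all shared regions), and these lay near 6 of the 9 genes, namely *Gad2*, *Slc32a1*, *Lhx6*, *Lhx8*, *Npas1* and *Olig2*. Of all protein-coding genes 28.6% had such a region within 100 kb. A −log10 q of 5 or more in both lists was reached by 2 of 19 (15.6% of all shared regions), the *Arhgap40* region upstream of *Slc32a1* and the *Ptgs1* region upstream of *Lhx6* (2 of 9 genes, against 14.9% of all genes). Neither of these 2 regions had the group's gene as its nearest. The summits of a shared region lay a median of 55 bp apart in the lists, and 263 bp at most, at *Lhx8*.

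By place, 2 shared regions lay inside a gene of the group, 9 upstream and 8 downstream. A shared region inside the gene was found at 2 of 9 genes, *Gad2* and *Nrp2*, the longest in the group, against 14.6% of all protein-coding genes and 11.9% of those between its shortest and longest in length (29.3% for replicate 1 peaks and 50.5% for replicate 2 peaks). Taken alone, replicate 1 had a peak inside 5 of 9 genes (30.6% of all genes) and replicate 2 inside 4 of 9 (48.9%). A peak of each list lay inside 3 genes, *Gad1*, *Gad2* and *Nrp2*, a count with no share over all genes beside it. Per 100 kb, replicate 2 was densest in the 10 kb next to the genes, with 7.22 peaks (13 in 180 kb). It had 3.84 inside the genes and 3.44 between 50 and 100 kb. Replicate 1 did not follow, with 2.24 peaks per 100 kb inside and 2.11 between 50 and 100 kb. It had 1.67 in the 10 kb next to the genes (3 peaks). Shared regions were sparsest there, at 0.556 per 100 kb (1 region), against 0.972 from 10 to 50 kb and 1 from 50 to 100 kb. Within the 100 kb windows the lists thus did not show a common rise toward the genes, on few peaks close to them. No densities by distance over all genes are set beside these values.

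Most of the shared regions lay closer to another gene. When each was linked to the gene it lay in, or failing that to the closest of all annotated genes, 2 of the 19 belonged to the group, the inner regions of *Gad2* and *Nrp2*. With protein-coding genes only, 6 of 19 did, adding 1 at *Nrp2*, 2 at *Lhx8* and 1 at *Olig2*. The other 13 were linked to *Sp5*, *Apbb1ip*, *Arhgap40*, *Pard3b*, *Ndufa8*, *Ptgs1*, *Slc44a5*, *Tmem160*, *Arhgap35* and *Olig1*. No region was linked to *Gad1*, *Slc32a1*, *Lhx6*, *Npas1* or *Gsx2* by this rule, which leaves *Gad2*, *Nrp2*, *Lhx8* and *Olig2*. The same links were not counted for the windows of all protein-coding genes. These counts therefore describe the regions and are no result about the group.

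**Figure D4:**
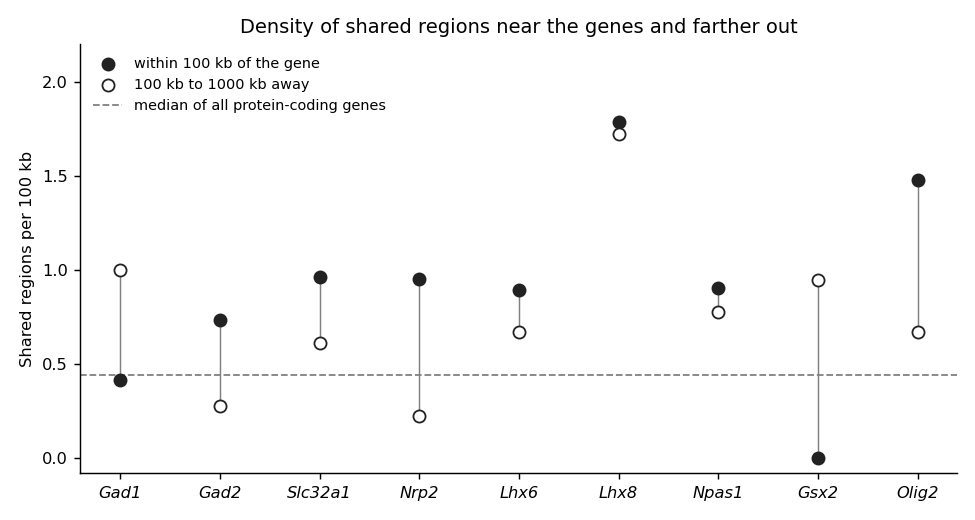
Shared regions per 100 kb (vertical axis) within 100 kb of each gene (filled) and from 100 to 1000 kb away (open), with the median of all protein-coding genes as a dashed line. The near density was above the far density at 7 genes (39.1% of all protein-coding genes) and below it at *Gad1* and *Gsx2*.

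The surroundings of the genes differed widely. From 100 to 1000 kb away, the density of shared regions ran from 0.222 per 100 kb around *Nrp2* to 1.72 around *Lhx8*. *Lhx8*, which had the highest density in its window, at 1.78 per 100 kb, was thus close to the level of its surroundings. The density in the window was above that farther out at 7 of 9 genes (39.1% of all genes). *Nrp2* had 0.951 against 0.222, *Gad2* had 0.733 against 0.278, *Olig2* had 1.48 against 0.667 and *Slc32a1* had 0.959 against 0.611. Differences were smaller at *Lhx6*, with 0.893 against 0.667, and at *Npas1*, with 0.905 against 0.778. The *Lhx6* value counts the region that crossed the edge of its window, with the replicate 1 summit outside. Without that region *Lhx6* would not be among the 7 genes. *Gsx2* had 0 against 0.944, and *Gad1* had 0.415 against 1. For single lists, near densities were above far ones at 7 of 9 genes in replicate 1 (45.9% of all genes) and at 6 of 9 in replicate 2 (51.7%). The differences in shared regions rest on 0 to 4 regions a gene and were not tested.

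**Figure D5:**
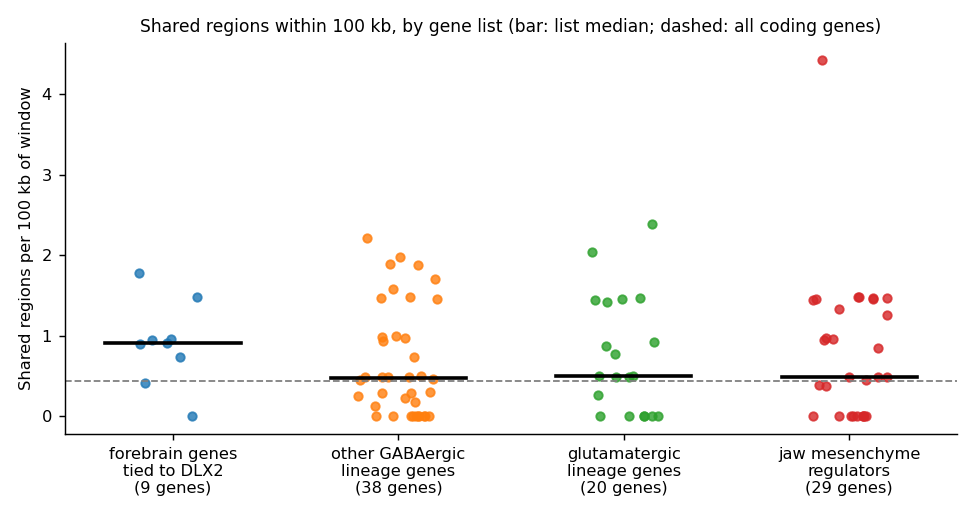
Shared regions per 100 kb of window (vertical axis) for each gene (points) of the group and of 3 other lists, with list medians as bars and the median of all protein-coding genes as a dashed line. The group's median, 0.905, stood above 0.472, 0.494 and 0.490 in the other lists, whose points spread from 0 to 4.42.

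The group was set beside 3 other lists in the same windows. Of 38 other genes of the forebrain GABAergic lineage, 28 had a shared region within 100 kb (73.7%). The same held for 14 of 20 genes of the glutamatergic lineage of the forebrain (70.0%) and for 20 of 29 regulators of the jaw mesenchyme (69.0%). The background of all protein-coding genes was 60.3%, and the GABAergic list lay close to the glutamatergic list. Median densities of shared regions were 0.472, 0.494 and 0.490 per 100 kb in the 3 lists, 0.905 in the group and 0.441 over all genes.

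From each list 3 genes with the most shared regions are named, with ties in alphabetical order. In the GABAergic list they were *Calb2*, a calcium-binding protein of interneurons, with 5, and *Ackr3*, a chemokine receptor of migrating interneurons, and *Olig1*, which had 4 each, as did other genes of the list, among them *Prox1*, *Robo2* and *Six3*. The window of *Olig1* overlaps that of *Olig2*. In the glutamatergic list they were *Cux2* with 8, *Bcl11b* with 7 and *Cux1* with 4, transcription factors of cortical layers. In the jaw list they were *Foxf1*, a forkhead factor of mesenchyme, with 9, and *Alx4* and *Barx1*, homeobox factors of facial mesenchyme, with 3 each. In all 9 jaw genes had 3, the others being *Dlx2*, *Dlx3*, *Dlx4*, *Msx1*, *Osr2*, *Six2* and *Sox9*. The lists were chosen by name and differ in size, and no test of their difference was made.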

How the data were processed

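DLX2 CUT&Tag peak lists of 2 libraries from E12.5 wildtype maxillary process were used, 1 list per library, not pooled. Per the submitters' processing notes, reads were trimmed with Trim Galore 0.4.5, aligned with Bowtie 1.1.2 to mm10 and peaks called with MACS2 2.2.7, whereas the study's methods name bowtie2 and another Trim Galore version. The labels describe sonicated chromatin and the methods a transposase. Peak calling settings are not given in the sources used here. The deposited fold is a ratio of summit fragments to local background, the deposited −log10 p and −log10 q are the peak caller's, and the deposited score is the whole part of 10 times −log10 q and was not used further. The deposited summit positions, in bases from the peak start, were used to pair summits.

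Read totals are not in the lists. Fragments at each summit were recovered from fold and −log10 p, taking fold as (fragments + 1) / (background + 1) and p as a Poisson upper tail, which gave whole numbers within 0.001 for 100% of peaks, and are an inference. Shared regions were overlaps of at least 1 bp, and bedtools 2.31.1 gave the same 10921. The study reported fewer peaks in each replicate and fewer common to both, so these shared regions are not the study's set. Gene extents came from RefSeq GRCm38.p6 on chromosomes 1 to 19, X and Y, leaving out genes listed before position 3000000, and strand and starts from the promoter table. A region in several genes was linked to the shortest. Exons, and sequences of peaks outside promoter windows, were not analysed here. Numbering of the replicates follows sample order.

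No test was made, because the 2 lists are replicates of 1 condition. Counts are read against all 21757 protein-coding genes, or at promoters and starts against the 17476 with a promoter window. The main shares of peaks met carry 95% Wilson intervals. The genes, the lists beside them and the alternatives were chosen with earlier results of these data known. The rule for named items took the 9 genes, their shared regions, the linked genes and the highest peaks, and 3 genes of each other list. Peaks near starts, near misses, promoter matches and the densities by distance were added after their values were seen. Counting and recovery were tested on simulated data. Scripts ran on Python 3.11.15 with pandas 2.3.3, numpy 2.4.6, matplotlib 3.10.9 and scipy 1.17.1.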

Additional observations from a re-analysis of the deposited data

How the results depend on the processing

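The counts near the 9 genes moved with the window and the threshold by construction. Peaks with a −log10 q no lower than 5 numbered 4 in replicate 1 and 16 in replicate 2, with 2 shared regions at 2 genes, and with a fold of at least 5 there were 15, 25 and 8. A window of 10 kb held 10, 25 and 3 at 3 genes, 50 kb held 25, 58 and 10 at 5 genes, and 250 kb held 102, 207 and 48. An overlap of 50% or more of both peaks held for 10 regions, which brought the share of peaks met to 22.7% in replicate 1 and 11.2% in replicate 2. With the threshold applied to both lists, the share of replicate 2 peaks met was 13% at the −log10 q of 5 (16 peaks). At the fold of 5 it was 32.0% (25 peaks). Only 4 and 15 replicate 1 peaks were left to meet them. These shares therefore do not say how often the stronger replicate 2 peaks met any replicate 1 peak. In the unfiltered lists, replicate 2 peaks with a counterpart had a median fold of 6.38, against 3.81 without. Within 10 kb the share was 12.0% (25 peaks), and the cause was not tested. With either replicate left out, the peaks of the other numbered 44 and 89 in place of the 19 shared regions. The other 23 of 49 alternatives stayed within 1.5 times the count or inside the interval of the share. The background moved with the window too: 21.8% of protein-coding genes had a shared region within 10 kb, 44.7% within 50 kb and 79.4% within 250 kb. No paired analysis was possible because there is 1 group. The alternatives for the homeodomain core in peaks were not run, since no genome sequence was used here. Signal that both libraries would show without the antibody was not measured here, and few fragments under most peaks limit what either list can show.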
